A study of Homo sapiens with 2 samples.

Results

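BCL6, CITED2, KLF6, MXI1 and MYC encode proteins that switch other genes on or off, and FLAG peaks were called at 2 of these 5 genes. The members were chosen by position: a peak belonged to a gene when its summit lay in a fixed window round that gene on the human genome build hg19. By this rule 2 of the 9717 peaks in the list were members, 1 at CITED2 and 1 at MXI1. BCL6, KLF6 and MYC counted as members with no called peak. For each window width, the share of equally wide tiles of chromosomes 1 to 22 and X that held a summit gives the background of these counts. It was 6.54% for CITED2 and 22.4% for MXI1, which had a peak, and 11.7% for BCL6, 8.28% for KLF6 and 7.29% for MYC, which had none. The tiles were laid over the whole genome and the windows over genes, so these shares are a description. The 5 windows together covered 225 kb and held 0.889 summits per 100 kb (95% Poisson interval 0.108 to 3.21), against 0.333 over chromosomes 1 to 22 and X. That interval rests on 2 peaks and includes 0.333. The genes were chosen with earlier results of these data known, so this density is a description too.

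The study mapped FOXO3 in U87MG, a human glioblastoma cell line, by CETCh-seq, in which the factor's own gene is edited to carry an epitope tag and an antibody to that tag pulls down its chromatin. The FLAG library (FLAG immunoprecipitation, n = 1) and the Input library (chromatin without immunoprecipitation, n = 1) both came from U87MG cells under LY294002, which inhibits phosphoinositide 3-kinase, and the labels give WT as the genotype of both. The labels do not say whether the tagged cells were 1 clone or whether the input came from tagged cells. One peak list, that of the FLAG library, was analysed here, so no difference between conditions was tested and each interval covers counting error only.

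FOXO3 is a forkhead transcription factor that phosphoinositide 3-kinase signalling through AKT keeps out of the nucleus, and inhibitors of that kinase let it return to chromatin. Its effects on growth pass in part through other regulators of transcription. MXI1 binds MAX and represses genes at the sites that MYC and MAX together activate, so it opposes MYC, and it has been described as a FOXO3 target in human cells. CITED2 binds the acetyltransferases of the CBP family and limits the hypoxia response by competing with HIF for them, and it too has been described as a FOXO3 target. BCL6 is a zinc-finger repressor known from germinal centre B cells and described as a target of FOXO factors in blood cells. KLF6 is a zinc-finger factor of the Krüppel-like family, and MYC is the growth-promoting factor that MXI1 opposes.

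The 3 promoters of MXI1 and the first of the 3 promoters of CITED2 are shown, since these genes had a peak and their promoters differed in the forkhead core. Each line gives 300 bases from RefSeq (GRCh38.p14), from 250 before a start of transcription to 50 after it, 5′ to 3′ in the direction of the gene. Capitals mark TGTTTAC or its reverse complement GTAAACA, the core that FOXO factors bind.
MXI1 at the first start, chr10:110207355-110207654, + strand: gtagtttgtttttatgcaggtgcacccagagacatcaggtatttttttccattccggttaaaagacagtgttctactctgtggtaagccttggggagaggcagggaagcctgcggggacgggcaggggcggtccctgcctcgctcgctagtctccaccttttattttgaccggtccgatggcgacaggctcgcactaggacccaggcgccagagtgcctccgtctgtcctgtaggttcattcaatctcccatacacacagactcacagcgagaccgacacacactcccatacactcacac
MXI1 at the second start, chr10:110209981-110210280, + strand: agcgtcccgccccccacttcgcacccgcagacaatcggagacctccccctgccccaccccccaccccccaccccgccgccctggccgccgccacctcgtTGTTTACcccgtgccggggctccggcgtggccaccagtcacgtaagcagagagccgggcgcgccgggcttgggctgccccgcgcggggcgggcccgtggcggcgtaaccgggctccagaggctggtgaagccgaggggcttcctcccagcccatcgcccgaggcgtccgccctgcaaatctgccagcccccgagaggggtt
MXI1 at the third start, chr10:110225746-110226045, + strand: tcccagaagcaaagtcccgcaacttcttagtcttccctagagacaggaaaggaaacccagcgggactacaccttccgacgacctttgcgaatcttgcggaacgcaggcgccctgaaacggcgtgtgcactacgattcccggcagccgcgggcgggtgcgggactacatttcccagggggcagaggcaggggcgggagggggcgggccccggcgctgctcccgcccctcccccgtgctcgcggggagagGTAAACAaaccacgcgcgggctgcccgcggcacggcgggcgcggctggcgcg
CITED2 at the first start, chr6:139374599-139374898, - strand: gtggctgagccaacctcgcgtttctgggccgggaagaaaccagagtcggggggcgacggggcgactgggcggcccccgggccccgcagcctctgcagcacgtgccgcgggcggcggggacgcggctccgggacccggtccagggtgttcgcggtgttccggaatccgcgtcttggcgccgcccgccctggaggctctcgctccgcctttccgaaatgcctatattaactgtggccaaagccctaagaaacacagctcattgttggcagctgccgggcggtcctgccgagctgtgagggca

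The forkhead core was in 2 of the 3 MXI1 promoters and in none of the 3 CITED2 promoters. The second MXI1 promoter held it as TGTTTAC from base 100 to 106 of the 300, which is 151 to 145 bases before the start. The remaining one held it as GTAAACA from base 249 to 255, across the start itself. The core was searched on both strands, and 1202 of all 35116 RefSeq promoters of this length held it (3.42%). Its first 5 letters alone, TGTTT, which every match of the longer core contains, were in 44.4% of all promoters, in all 3 MXI1 promoters and in the first CITED2 promoter, but in neither of the others of CITED2. Of the genes without a peak, TGTTT was also in the second BCL6 promoter, with 4 matches, and in the KLF6 promoter, with 1 match. Of the members, 4 of 5 had entries in this table. The 2 BCL6 promoters and the 1 KLF6 promoter held no TGTTTAC.

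RefSeq placed the second MXI1 start 2.63 kb and the third 18.4 kb downstream of the first. These positions are on GRCh38.p14 and the peaks are on hg19, so which MXI1 start lay nearest to the MXI1 peak was not analysed here. For related factors, 30 genes were listed. They came from the MAX network, the BCL6 family and corepressors, the CITED family with its partners and the KLF family. In the 25 of them with an entry, no promoter held TGTTTAC. Over all 27305 genes with an entry, 1145 (4.19%) had a promoter with it, so a count of 0 in 25 genes was near the background. Their peaks were not analysed here, since no hg19 annotation was used.

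The CITED2 and MXI1 peaks had close folds and stood in the upper part of the list. The fold is the ChIP pileup at the summit plus 1 over the background plus 1. The pileup is the number of sequenced tags that the peak caller, MACS2, counted at the summit. The background is the number of tags that MACS2 predicted there. The fold, like the p-value and q-value of each peak, is the authors' own. The CITED2 peak had a fold of 5.99, and its 95% Poisson interval ran from 4.39 to 7.99; it had 44 tags on a background of 6.52 tags. The MXI1 peak was enriched 5.85-fold (4.36 to 7.70), with 49 tags on a background of 7.54. These intervals overlapped almost wholly, and the pileups differed by 5 tags. The median fold of all 9717 peaks was 3.88, with quartiles of 3.36 and 4.80, and the median pileup was 25 tags over a median background of 5.59 tags.

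By fold the CITED2 peak ranked 1235 and the MXI1 peak 1316 of 9717, which is the top 12.7% and the top 13.5%. At the bounds of its fold interval the rank of the CITED2 peak ran from 499 to 3337, and that of the MXI1 peak from 574 to 3379, so each order of the pair lay within counting error. The −log10 q was 18.0 at CITED2 and 19.5 at MXI1. Both therefore passed a −log10 q of 10, which 25.5% of all peaks reached, and a fold of 5, which 22.1% reached. Within its own chromosome the CITED2 peak ranked 65 of 427 on chromosome 6, and the MXI1 peak ranked 75 of 528 on chromosome 10.

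**Figure D1:**
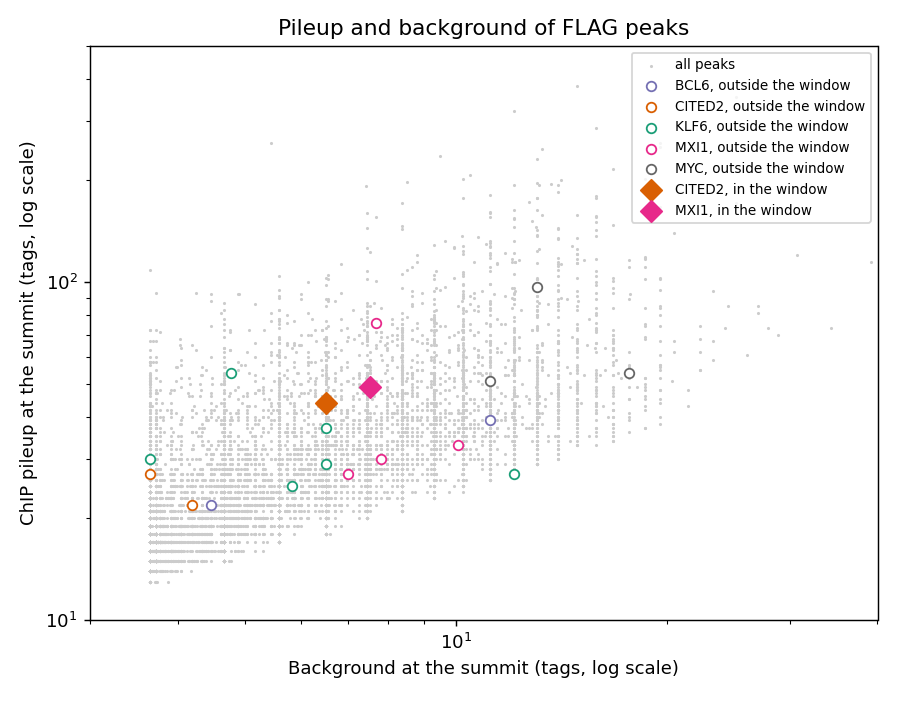
ChIP pileup against the background at the summit, in tags on log axes, for all FLAG peaks (grey dots), the CITED2 and MXI1 peaks in their windows (filled diamonds) and the peaks within 150 kb outside each gene window (open circles). The CITED2 peak (44 tags over 6.52) and the MXI1 peak (49 over 7.54) lie close together, the peaks near MYC lie at the high backgrounds of 11.2 to 17.7 tags, and 17 peaks of the list fall beyond the axes.

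CITED2, the CBP-binding regulator, had its peak just upstream of the gene. The called interval lay on chromosome 6 from 139696515 to 139696941 (hg19), with the summit at 139696641. The 5′ end of CITED2 is at 139695785 on the minus strand, so the summit lay 856 bp upstream of it and the interval 730 to 1156 bp upstream. The interval did not reach the 250 bases before this start. With 427 bp it was wider than the median of 246 bp in the list. Of the 768 peaks whose pileup was within 10% of its own, 24.1% were as wide or wider. The summit sat off centre, 126 bp from the lower end and 300 bp from the upper end of the interval.

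The CITED2 peak had a neighbour on either side within 50 kb of its window, and their folds overlapped its own. Upstream, on chromosome 6 from 139728877 to 139729134, a peak 33.2 kb from the 5′ end was enriched 6.02-fold (4.04 to 8.66). That fold came from 27 tags on a background of 3.65 tags, the lowest of the list and taken here as the genome-wide background. The pileup was thus lower than at CITED2 while the fold was not. Downstream, from 139644943 to 139645147, a peak 50.7 kb beyond the 5′ end was enriched 4.43-fold (2.85 to 6.61), with 22 tags on a background of 4.19. Summits numbered 3 within 50 kb of the window edges, the CITED2 peak included. No further one was called below the window until 417 kb from its edge, where a peak was enriched 6.45-fold (4.39 to 9.17), and none above it until 155 kb.

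MXI1, the MAX partner that opposes MYC, had 1 peak in its window of 101 kb. The called interval lay on chromosome 10 from 111985617 to 111985796 (hg19) with the summit at 111985709, which is 28.7 kb above the lower edge of the window. It was 180 bp wide, and 2118 of all 9717 peaks (21.8%) were as narrow or narrower. Among 546 peaks with a pileup within 10% of its own, the median width was 361 bp with quartiles of 281 and 449 bp. Of these 546, 11 (2.01%) were as narrow, the MXI1 peak included. Of the 2473 peaks that reached a −log10 q of 10, 42 were at most 180 bp wide (1.70%), and among those the MXI1 peak ranked 4 by −log10 q and 8 by fold. The comparison of widths was chosen after the values were seen and has no test. The summit lay near the middle, 92 bp from the lower end and 87 bp from the upper.

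**Figure D2:**
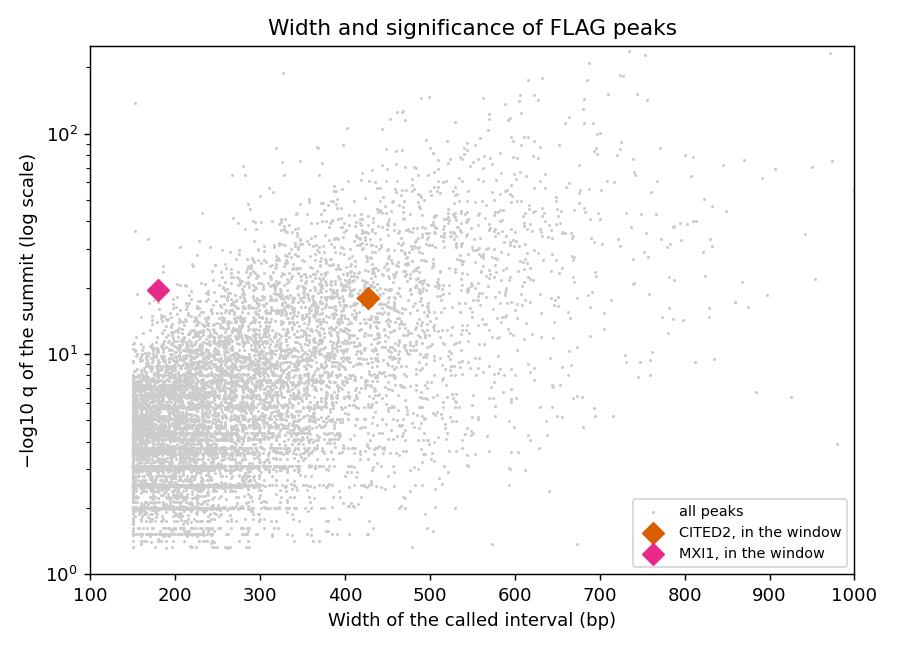
Width of the called interval in bp against the −log10 q of the summit on a log axis, for all FLAG peaks (grey dots) and for the CITED2 and MXI1 peaks (diamonds). The peaks have a similar −log10 q of 18.0 and 19.5, but the MXI1 interval of 180 bp lies at the narrow edge of the cloud and the CITED2 interval of 427 bp inside it. Beyond the axes fall 7 peaks.

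Round MXI1, summits were called on 1 side only within 150 kb. RefSeq order places the gene between ADD3 and SMNDC1. Below the window the nearest summit was 304 kb away, enriched 3.91-fold (2.71 to 5.47). Above it, peaks lay 38.1 kb and 59.4 kb from the edge, with folds of 3.51 (2.41 to 4.97) and 3.08 (2.15 to 4.28). The interval of the nearer one overlapped that of the MXI1 peak, and the interval of the farther one did not reach it. A stronger peak lay 100 kb from the edge, on chromosome 10 from 112158279 to 112158650, enriched 8.87-fold (7.01 to 11.1), with 76 tags on a background of 7.68. The background was 7.0 to 10.1 tags at all 5 summits from the MXI1 window to 150 kb beyond it, against a median of 5.59 tags over the 528 peaks of chromosome 10. Its part in these folds was not tested.

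KLF6, on the same chromosome, had no peak in its window but the most peaks near it of the 5 genes. Its window of 30 kb held no summit, while 5 lay within 50 kb of the edges and 6 within 100 kb. Chromosome 10 as a whole had 0.408 summits per 100 kb, and these counts were not tested against it. For comparison, within 50 kb outside the windows BCL6 had 1, CITED2 had 2, MXI1 had 1 and MYC had 0. Those closest to the KLF6 window were just outside it, at 9.60 kb above and 10.9 kb below.

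Upstream of KLF6, whose 5′ end is at 3827473 on the minus strand of chromosome 10, a row of 3 peaks spanned 5.08 kb. They lay 20.1, 21.5 and 25.2 kb upstream. The first, from 3847477 to 3847760, was enriched 3.99-fold (2.72 to 5.67), with a −log10 q of 7.0. The second, from 3848880 to 3849122, was enriched 2.14-fold (1.43 to 3.07), with 27 tags on a background of 12.1 tags, which is 3.31 times the genome-wide background, and its −log10 q of 1.33 was near the lowest of the list, 1.31. The last, from 3852637 to 3852786, was enriched 3.81-fold (2.52 to 5.56), with a −log10 q of 5.52, and had the smallest width called, 150 bp. The folds of this row were near or under the median of 3.88, and the second ranked 9690 of 9717.

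The highest fold within 150 kb of any of the 5 windows was further upstream of KLF6. It was on chromosome 10 from 3893641 to 3894412, 66.5 kb upstream of the 5′ end and 56.0 kb outside the window. Its fold of 9.52 (7.20 to 12.4) rested on 54 tags and a background of 4.78 tags, and it ranked 269 of 9717 by fold. With 772 bp it ranked 55 of 9717 by width. On the other side of the 5′ end, a peak 30.3 kb away was enriched 5.06-fold (3.60 to 6.92), and one 44.5 kb away was enriched 6.66-fold (4.57 to 9.42). The peak 44.5 kb away sat on the genome-wide background of 3.65 tags. Beyond these no summit was called until 288 kb below the window and 520 kb above it. Which gene any of these peaks acts on was not measured.

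**Figure D3:**
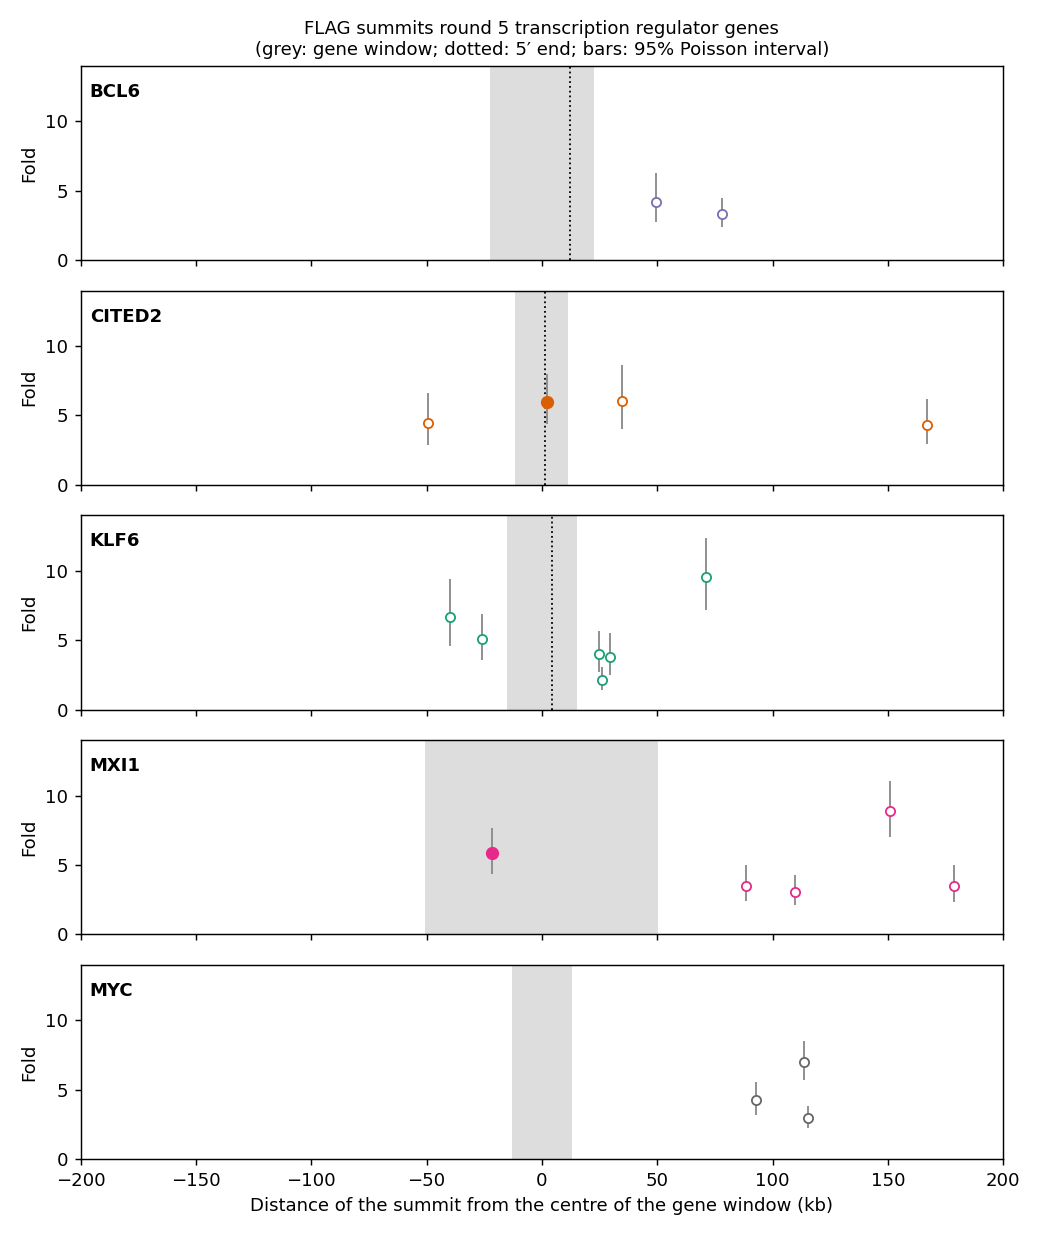
Fold enrichment of each FLAG summit, with its 95% Poisson interval as a bar, against its distance in kb from the centre of each gene window, out to 200 kb on either side. Filled points lie in the window (grey), open points outside it, and dotted lines mark the 5′ ends of BCL6, CITED2 and KLF6. Only the CITED2 and MXI1 windows hold a point, and the KLF6 window is empty with 6 points within 100 kb, the highest at a fold of 9.52.

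BCL6, the zinc-finger repressor, lay beside a long stretch without summits. Its window of 45 kb on chromosome 3 held none. Its 5′ end is at 187463513 on the minus strand, and the first summit upstream was 37.5 kb away, from 187500944 to 187501191, enriched 4.21-fold (2.70 to 6.27), with 22 tags on a background of 4.47. The next, 66.3 kb upstream from 187529645 to 187529887, was enriched 3.29-fold (2.36 to 4.46), with 39 tags on a background of 11.2 tags. Both lay on the side where RefSeq order has LPP as the next protein-coding gene. On the downstream side no summit was called for 958 kb below the window. The 2 summits that bracket BCL6 were thus 1030 kb apart. Chromosome 3 as a whole had 0.325 summits per 100 kb, and how often gaps of this length occur there was not tested.

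MYC had the widest stretch without a summit of the 5 genes. Its window of 26 kb on chromosome 8 held none, and none lay within 50 kb of its edges. The first summit above the window was 80.0 kb away, enriched 4.27-fold (3.20 to 5.59), with 51 tags on a background of 11.2. The next was 100 kb away, from 128864232 to 128864669 (hg19), enriched 6.98-fold (5.68 to 8.50), and its 97 tags ranked 184 of 9717 by pileup. Beyond it, 102 kb away, a peak was enriched 2.94-fold (2.22 to 3.82), with 54 tags on a background of 17.7. Below the window the nearest summit was 1760 kb away, so the bracketing summits were 1860 kb apart. Chromosome 8 as a whole had 0.318 summits per 100 kb, and how often gaps of this length occur was not tested. The background at the 3 summits above MYC, 11.2 to 17.7 tags, was 3.06 to 4.84 times the genome-wide one. Within 150 kb of the other windows the highest background was 6.52 tags for CITED2, 10.1 for MXI1, 11.2 for BCL6 and 12.1 for KLF6. Its part in the folds there was not tested.

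An empty window does not show that FOXO3 was absent from BCL6, KLF6 or MYC. At the genome-wide background the smallest called pileup was 13 tags, a fold of 3.01. At the background of the nearest called peak on either side, which lies 958 kb off on 1 side of BCL6 and 1760 kb off on 1 side of MYC, the smallest pileup that reaches the lowest −log10 p of the list, 4.16, was 14 to 16 tags for BCL6 (folds of 2.74 and 2.70), 18 tags for KLF6 (a fold of 2.53) and 14 to 26 tags for MYC (folds of 2.97 and 2.22). Sites below such values were not detectable at this depth. The background inside the empty windows was not measured by the list.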

How the data were processed

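The FLAG chromatin immunoprecipitation library of U87MG cells had 1 peak list, and the Input library entered no comparison of its own. Per the submitters' processing notes, Trimmomatic, HISAT2 and MACS2 were used with hg19, without versions. Not given in the sources used here are read filters, thresholds and the control library. The layout is MACS2's narrowPeak. The deposited fold is a ratio, the deposited −log10 p-value and −log10 q-value belong to the summit, and the deposited score is the −log10 q times 10, rounded down, in 9717 peaks. Pileup and background were solved together from fold and p, and the pair gave back the −log10 p within 0.001 in all 9717 peaks. This step was tested on simulated data whose backgrounds did not reach the highest ones given near KLF6 and MYC. Intervals are exact 95% Poisson intervals of the pileup and leave out the error of the background; sequenced tags are not independent molecules. Tiles covered each chromosome between its outermost summits, assembly gaps included. Starts count from 1. The members and lists were chosen with earlier results of these data known. The rule for named genes took every member, each of its peaks, and the nearest peaks outside each window; further peaks near the windows were named after their values were seen. Python 3.11.15, scipy 1.17.1 and pandas 2.3.3 were used.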

Additional observations from a re-analysis of the deposited data

How the results depend on the processing

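Of 20 alternative settings over 8 results, 16 kept the value within its counting interval or the count within 1.5 times, and 4 did not. The 2 member peaks stayed 2 at a −log10 q of 5 or 10, at a fold of 5, by overlap of the interval with the window and with peaks within 500 bp merged. They became 11 with windows widened by 50 kb and 15 with windows widened by 100 kb, the second chosen after seeing the data; wider windows take in more sequence by construction. Set against the genome-wide background in place of the local one, the fold was 9.67 at CITED2 and 10.7 at MXI1, since that background is lower by construction. With 1 library no replicate could be left out. No paired analysis was possible because each group has 1 sample and only FLAG has a file analysed here. The planned motif search round summits and the count of peaks at related genes were not run, since no hg19 genome or annotation was used. Depth limits what an empty window shows, as given for BCL6, KLF6 and MYC.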
